A study of Mus musculus with 4 samples.

Results

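The genes described here are 10 enzymes of fatty acid synthesis, elongation, desaturation and activation: Acly, Acaca, Fasn, Elovl6, Scd1, Scd2, Fads1, Fads2, Elovl5 and Acsbg1. They were taken by symbol from the 27998 genes counted in each library, with earlier results of these data known. All 10 were found in all 4 libraries. Their transcripts were read in single nuclei of frozen hippocampus, with 1 pooled library per genotype from B6 mice aged 9 months. P301S/EKO (7 hippocampi) joins a human tau transgene carrying the P301S change with loss of Apoe, the gene of apolipoprotein E. P301S (8 hippocampi) has the tau transgene alone, EKO (7 hippocampi) has loss of Apoe alone, and WT (7 hippocampi) has neither. The labels name neither the transgenic line nor its promoter, and pooling hides differences between animals. The series concerns how apolipoprotein E bears on tau-associated neurodegeneration, and 2 further genotypes of its design were not analysed here.

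Cells make saturated fatty acids in the cytosol from acetyl-CoA, which is carboxylated to malonyl-CoA and then condensed in repeated rounds on fatty acid synthase. The products are lengthened and given double bonds in the endoplasmic reticulum, and dietary linoleic and linolenic acids pass through the same membranes to become the long polyunsaturated chains that neuronal membranes need. In the brain, glia carry out much of this work and hand lipid to neurons on particles that hold apolipoprotein E. Sterol regulatory element-binding proteins switch on many of these genes, with NF-Y and Sp1 as partners at their promoters.

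Acly makes cytosolic acetyl-CoA out of citrate (chr11:100476353-100528000). Acaca, acetyl-CoA carboxylase, makes malonyl-CoA (chr11:84129672-84401651), and Fasn is fatty acid synthase (chr11:120805846-120824547). Elovl6 (chr3:129532355-129638495) lengthens palmitate, and the stearoyl-CoA desaturases Scd1 (chr19:44394455-44407879) and Scd2 (chr19:44293674-44306864) make monounsaturated chains. Fads2 (chr19:10062765-10101746) and Fads1 (chr19:10182888-10196877) are the front-end desaturases of the polyunsaturated pathway, with Elovl5 (chr9:77917364-77984519) lengthening the chains between them. Acsbg1 (chr9:54604877-54661870), the bubblegum acyl-CoA synthetase, joins long chains to coenzyme A. These spans are those of GENCODE vM21 on GRCm38 (mm10), the build the submitters name. The 50-base words of the last 1000 transcript bases, where this chemistry reads, were compared between each desaturase or elongase and its near relatives, and 0 of 951 words of Scd1 and 0 of 951 of Scd2 were shared. Acaca lies across Gm11437 on the other strand, and Elovl6 across the antisense gene Gm35986. On the same strand, Acaca overlaps Gm37391 and Elovl6 overlaps Gm43072, and the effect of these overlaps on the counts was not tested. Whether the counting used strand is not given in the sources used here.

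RefSeq promoter windows on GRCm38.p6, covering 250 bases before to 50 after a start site, matched 7 of the 10 genes; Scd1, Scd2 and Fads1 did not match. The 4 shown belong to genes led by the astrocyte-like class in every library, among classes with at least 50 nuclei, as given further on. Each is written 5′ to 3′ along the gene's own strand, with capitals on every match, on either strand, to CCAAT (the NF-Y box), CACGTG (an E-box) or GGGCGG (the GC box that Sp1 binds). The windows are Fasn at chr11:120824498-120824797 (minus strand), Elovl5 at chr9:77917115-77917414 (plus), Fads2 at chr19:10101454-10101753 (minus) and Acsbg1 at chr9:54661836-54662135 (minus).
Fasn: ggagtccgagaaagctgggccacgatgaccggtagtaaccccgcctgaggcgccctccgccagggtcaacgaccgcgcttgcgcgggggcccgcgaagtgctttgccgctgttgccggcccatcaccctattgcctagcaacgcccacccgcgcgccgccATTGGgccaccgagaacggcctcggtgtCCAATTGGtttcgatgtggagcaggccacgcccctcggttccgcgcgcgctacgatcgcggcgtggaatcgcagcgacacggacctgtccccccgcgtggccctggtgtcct
Elovl5: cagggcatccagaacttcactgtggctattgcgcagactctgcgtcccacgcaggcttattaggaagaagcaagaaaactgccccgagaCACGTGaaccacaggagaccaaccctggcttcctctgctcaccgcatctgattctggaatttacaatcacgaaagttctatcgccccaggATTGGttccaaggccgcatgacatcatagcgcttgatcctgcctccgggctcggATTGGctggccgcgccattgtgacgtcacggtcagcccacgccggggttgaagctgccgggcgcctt
Fads2: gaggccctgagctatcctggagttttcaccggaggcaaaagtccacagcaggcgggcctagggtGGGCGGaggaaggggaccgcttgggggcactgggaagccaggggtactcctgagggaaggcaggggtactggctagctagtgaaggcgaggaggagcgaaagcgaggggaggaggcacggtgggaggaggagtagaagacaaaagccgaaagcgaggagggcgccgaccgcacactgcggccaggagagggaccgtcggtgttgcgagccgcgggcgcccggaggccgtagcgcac
Acsbg1: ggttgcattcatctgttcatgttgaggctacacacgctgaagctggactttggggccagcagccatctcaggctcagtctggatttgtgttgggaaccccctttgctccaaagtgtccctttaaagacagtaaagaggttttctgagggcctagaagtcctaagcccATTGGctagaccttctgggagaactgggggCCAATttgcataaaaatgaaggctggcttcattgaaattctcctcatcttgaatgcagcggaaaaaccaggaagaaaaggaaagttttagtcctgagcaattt
Fasn holds 3 CCAAT boxes, starting 90, 62 and 59 bases before the start site, and the last pair overlap on opposite strands. Elovl5 holds CCAAT boxes 71 and 17 bases before its start and a CACGTG 161 bases before it. Acsbg1 holds CCAAT boxes at 83 and 53 bases, and Fads2 a single GGGCGG at 186 bases. CCAAT stood in 4 of the 7 windows, CACGTG in 1 and GGGCGG in 2, against 37.4%, 7.15% and 35.7% of all 32851 RefSeq windows of that length. The sterol regulatory element TCACNCCAC was in 0 of the 7 windows and in 1.24% of all windows. These matches describe letters, not binding.

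The files held 6767 barcodes in P301S/EKO, 3156 in P301S, 5982 in EKO and 6145 in WT, and between 8369762 and 14251675 UMIs per library. After filters, 5274, 2860, 5199 and 5234 nuclei were kept in that order. Library pairs shared between 19 and 69 barcodes. Levels are in CPM, the UMIs of a gene scaled to a common total of 1000000 UMIs. Apoe stood at 30.2 CPM in P301S/EKO and 18.19 in EKO, against 7443 in P301S and 2471 in WT. Mapt, the mouse tau gene, stood at 210.9 and 250.7 CPM in P301S/EKO and P301S, against 157.4 and 161 CPM in EKO and WT. Y-linked Eif2s3y was lower in both libraries without Apoe, at 265 and 293 CPM in P301S/EKO and EKO, against 512 and 552 CPM in P301S and WT, while Xist was at 5.74 to 9.84 CPM in all 4. The kept nuclei of both libraries without Apoe were shallower, at a median of 1420.5 and 1444.0 UMIs in P301S/EKO and EKO, against 2146.5 and 1904.5 in P301S and WT, so depth cannot be told apart from Apoe genotype. The astrocyte-like class had 203, 129, 197 and 276 nuclei in P301S/EKO, P301S, EKO and WT, and 14 of 14 markers exceeded the rest of the nuclei by 1.5-fold or more. Since each genotype is 1 pooled library, no test between genotypes was possible and no p-value is given. Intervals are 95% and cover counting error only.

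The genes fell into a group led by astrocyte-like nuclei and a group that was not. Fasn, Scd1, Scd2, Elovl5, Fads1, Fads2 and Acsbg1 had their highest level in astrocyte-like nuclei in 4 of 4 libraries, among the named classes with at least 50 nuclei. Acaca, Acly and Elovl6 did not. Choroid plexus-like nuclei fell under that number. In P301S their 43 nuclei had Fasn at 105.1 CPM (45.38 to 207.1) on 8 UMIs, against 51.3 CPM in astrocyte-like nuclei. The genes were left out of the clustering, so the classes were not drawn from their levels.

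**Figure D1:**
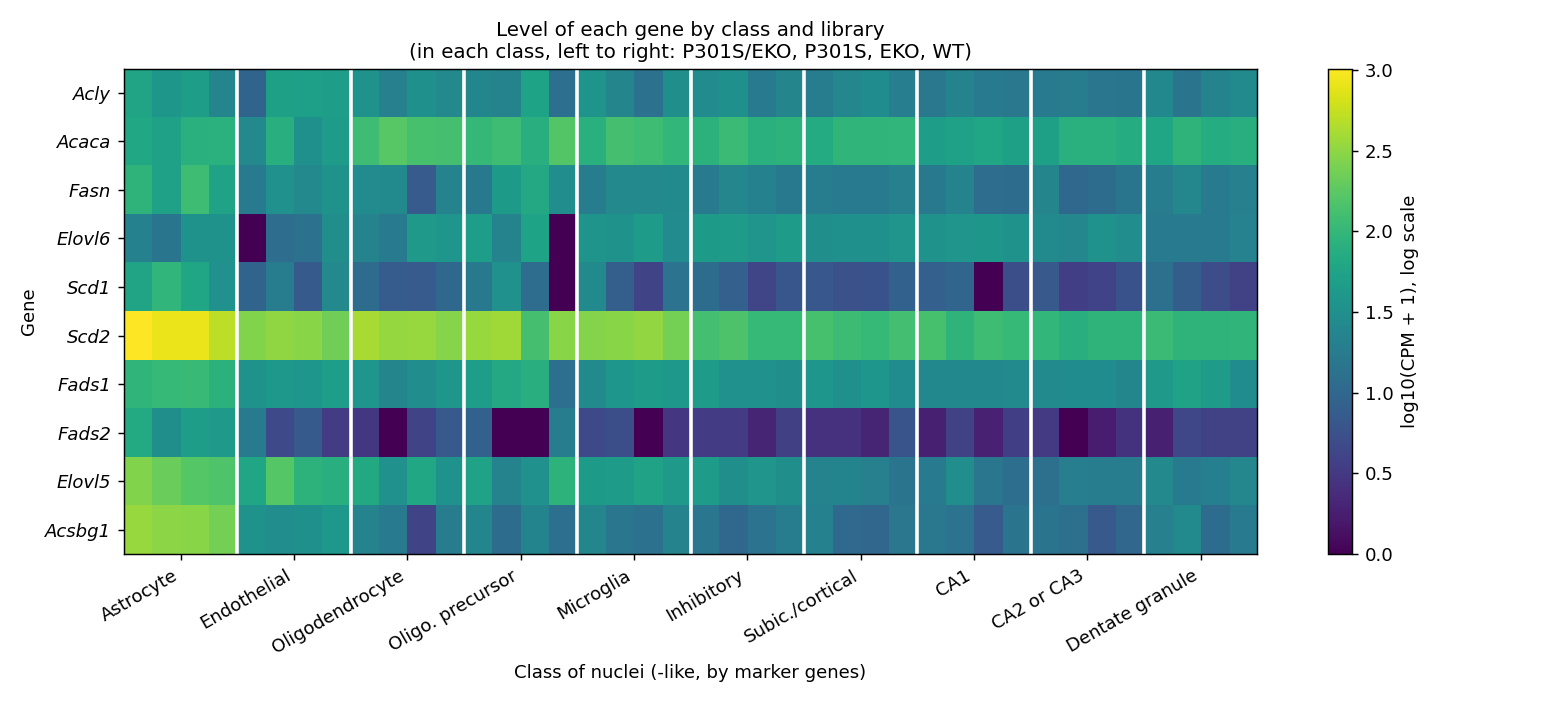
Level of each gene in the 10 named classes, as log10(CPM + 1), with columns within each class in the order P301S/EKO, P301S, EKO and WT. Brighter colour is a higher level. For the same library, the astrocyte-like column is the brightest of its row for Fasn, Scd1, Scd2, Fads1, Fads2, Elovl5 and Acsbg1, while Acaca and Elovl6 are spread over the classes.

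Acsbg1 was well separated from every other class. Its level in astrocyte-like nuclei was 348.2 CPM in P301S/EKO, 304.4 in P301S, 299.1 in EKO and 241.5 in WT, against 16.84, 11.41, 8.853 and 13.63 CPM in the pooled neurons of the same libraries. That is 20.7-fold (interval 15.4 to 27.7) in P301S/EKO, 26.7-fold in P301S, 33.8-fold in EKO and 17.7-fold in WT. The astrocyte-like class held 34.8%, 48.9%, 45.0% and 40.5% of all Acsbg1 UMIs while making up 3.85%, 4.51%, 3.79% and 5.27% of the nuclei. The interval of the astrocyte-like level lay above that of the next class in all 4 libraries.

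Scd2, the main stearoyl-CoA desaturase of brain, showed the same separation at 4.71- to 8.38-fold over neurons. Its astrocyte-like level was 1020 CPM (interval 898.3 to 1155) in P301S/EKO, 827.6 (726.6 to 938.7) in P301S, 826.1 (707.9 to 958.4) in EKO and 505.4 (444.5 to 572.2) in WT. The interval cleared the next class in each library. Oligodendrocyte-like nuclei had 406.0, 344.4, 349.7 and 289.3 CPM, and the 5 neuron classes had 78.45 to 147.2 CPM over all libraries.

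In the polyunsaturated pathway, Fads2 stood 43.7-fold (18.9 to 107) above neurons in P301S/EKO, 16.2-fold in P301S, 33.3-fold in EKO and 12.3-fold in WT. Its counts were small, with 17, 9, 10 and 20 UMIs in the astrocyte-like nuclei of those libraries, and its interval cleared the next class only in P301S. Elovl5 stood 12.2-fold above neurons in P301S/EKO, 8.66-fold in P301S, 7.96-fold in EKO and 8.75-fold in WT, but its interval cleared the next class only in P301S/EKO. In P301S the next class, endothelial-like, had 165.0 CPM against 208.6 in astrocyte-like nuclei. Fads1 was less confined: its astrocyte-like level was 93.13, 102.6, 109.2 and 85.24 CPM, which is 2.75- to 3.28-fold over neurons, and its interval overlapped that of the next class in every library.

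Fasn in astrocyte-like nuclei was 4.88-, 2.76-, 7.99- and 3.35-fold above neurons in P301S/EKO, P301S, EKO and WT, and Scd1, the isoform better known from liver and skin, 7.20-, 16.8-, 17.3- and 6.01-fold. The interval of Fasn cleared the next class only in P301S/EKO and that of Scd1 only in P301S. Acly, which feeds the pathway, was 2.93-, 1.59-, 2.31- and 1.23-fold above neurons, and its first class changed between libraries: astrocyte-like in P301S/EKO (56.69 CPM), endothelial-like in P301S (50.23) and WT (45.81), and oligodendrocyte precursor-like in EKO (54.23).

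Acaca and Elovl6 did not lead in astrocyte-like nuclei. For Acaca the astrocyte-like to neuron ratio was 0.99 in P301S/EKO, 0.581 (0.322 to 0.969) in P301S, 1.03 in EKO and 1.08 in WT. Its first class was the oligodendrocyte-like one in P301S/EKO (118.4 CPM), P301S (167.4) and EKO (136.7), and the oligodendrocyte precursor-like one in WT (160.9, with 131.6 in oligodendrocyte-like nuclei). Elovl6 had ratios of 0.695, 0.415, 1.10 and 1.04, on 5, 4, 7 and 17 astrocyte-like UMIs. The interval of the first class of Acaca overlapped that of the second in all 4 libraries. The first stood 1.18- to 1.28-fold above the second. Without nuclei holding much neuronal RNA, as defined below, oligodendrocyte-like nuclei had 179.0, 233.6, 146.2 and 171.4 CPM in P301S/EKO, P301S, EKO and WT. That was above the other glial classes and endothelial-like nuclei in each library, though intervals overlapped. Oligodendrocyte precursor-like nuclei in WT then had 83.26 CPM on 4 UMIs. The leading class of Acaca is thus not settled.

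**Figure D2:**
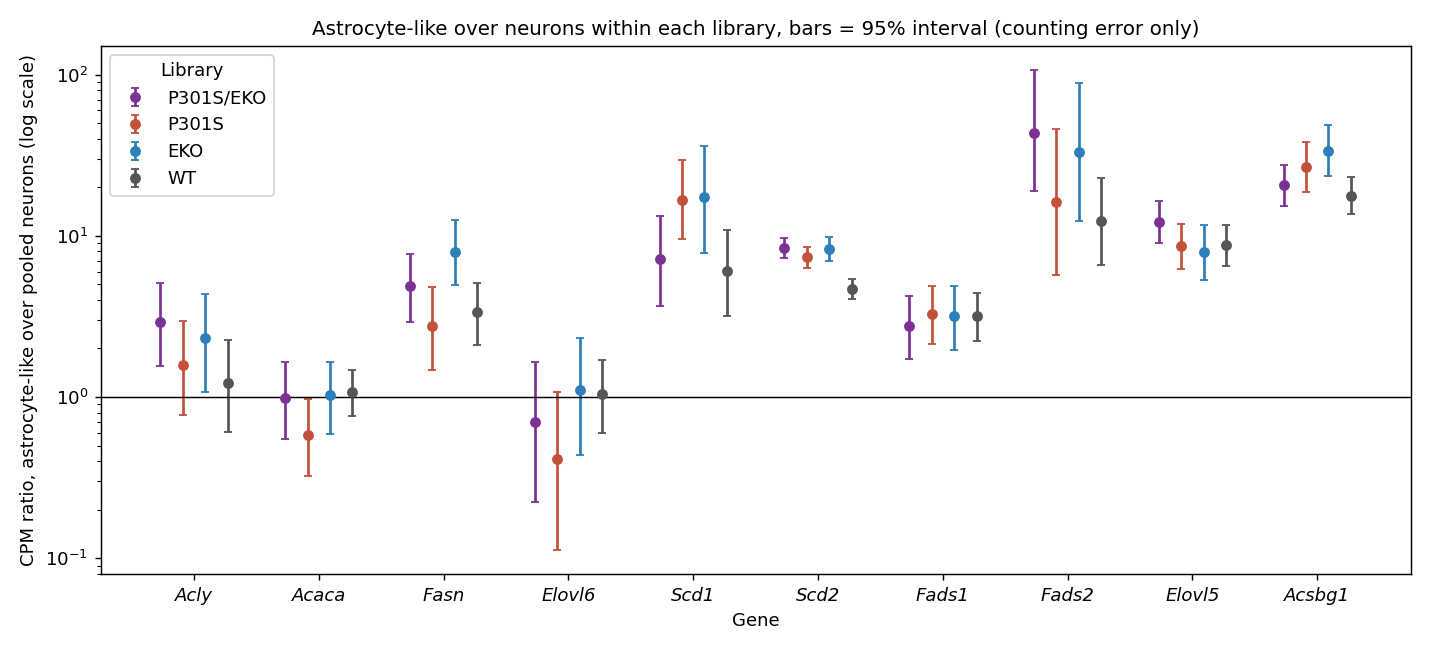
Ratio of the level in astrocyte-like nuclei to that in pooled neurons for each gene and library on a log axis, with 95% counting intervals as bars. Acsbg1 and Fads2 lie at 12.3-fold or more in each library, while Acaca runs between 0.581 and 1.08 and Elovl6 between 0.415 and 1.10, both lowest in P301S.

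Droplets of free RNA and nuclei mixed with neuronal RNA touch these classes. Nuclei whose neuronal share passed 50% of the CA1 median made up 2.96%, 8.53%, 0.508% and 19.2% of the astrocyte-like class in P301S/EKO, P301S, EKO and WT. All 10 of 10 neuronal genes looked at were found in it in each library, and their summed level was 5094, 6313, 4980 and 12270 CPM. The 7 astrocyte genes summed to 18180, 15600, 16260 and 10890 CPM. WT thus had the most neuronal and the least astrocyte RNA in this class, which lies along each comparison with WT. The 7 myelin genes summed to 3604, 2637, 1443 and 2594 CPM in it and the 7 microglial genes to 473.8, 813.9, 189.9 and 247.6 CPM (Cx3cr1 was at 0 in EKO), and the part of this RNA in the differences was not tested. In the oligodendrocyte-like class mixed nuclei made up 55.8%, 62.2%, 53.4% and 66.5%, and in the microglia-like class 54.6%, 64.6%, 47.9% and 77.7%, so levels in these classes carry much RNA of other cells. The share of free RNA, estimated from markers a class should lack, was 28.9%, 29.4%, 18.8% and 47.6% in the astrocyte-like class, 88.4%, 83.1%, 76.9% and 96.2% in the microglia-like class and 80.4%, 74.9%, 74.3% and 82.7% in the oligodendrocyte-like class, in P301S/EKO, P301S, EKO and WT.

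In astrocyte-like nuclei, Scd2 was the member with the most counts behind its differences. Against WT it was 1.64-fold higher (1.37 to 1.96) in P301S and 1.63-fold higher (1.34 to 1.99) in EKO. P301S/EKO was 1.23-fold (1.03 to 1.48) above P301S and 1.24-fold (1.01 to 1.51) above EKO. Without the mixed nuclei the level was 1062 CPM in P301S/EKO, 856.6 in P301S, 832.8 in EKO and 628.3 in WT, and the ratio to WT was 1.36 (1.12 to 1.65) in P301S and 1.33 (1.08 to 1.63) in EKO, both under 1.5-fold. Set against the 7 astrocyte genes, Scd2 gave 56.1, 53.0, 50.8 and 46.4 UMIs per 1000 UMIs of those genes in P301S/EKO, P301S, EKO and WT. In each of these measures P301S/EKO was highest and WT lowest, while P301S and EKO lay close together. The distance to WT was smaller without the mixed nuclei. It was smallest against the astrocyte genes, where no interval is given.

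**Figure D3:**
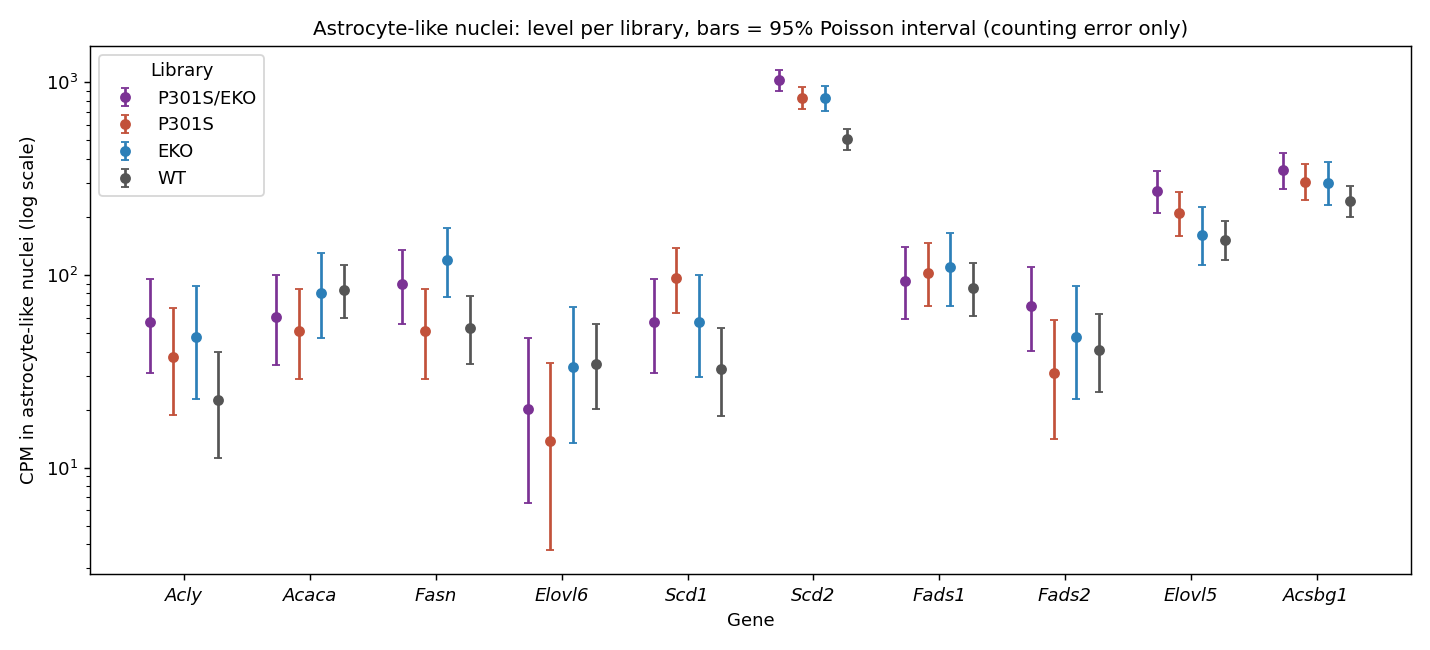
Level of each gene in astrocyte-like nuclei in CPM in the libraries P301S/EKO, P301S, EKO and WT, with 95% Poisson intervals. Scd2 runs between 1020 CPM in P301S/EKO and 505.4 CPM in WT with the WT interval below the other 3, while the intervals of Acaca, Fads1 and Acsbg1 overlap.

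For P301S over WT, 5 of the 10 genes had at least 50 UMIs over both libraries in astrocyte-like nuclei. Scd2 was at least 1.5-fold higher and Acaca at least 1.5-fold lower, where 20.9% of the 2635 genes tested were at least 1.5-fold higher and 16.1% lower, so these counts are close to the background. Acaca had 51.3 CPM on 15 UMIs in P301S and 83.21 on 41 in WT, a ratio of 0.616 whose interval (0.317 to 1.14) spans 1. Its log2 of -0.70 was -0.38 with at least 1100 UMIs per nucleus and -0.19 with doublets kept, both under 1.5-fold. Elovl5 (1.37, 0.961 to 1.95), Fads1 (1.20, 0.727 to 1.97) and Acsbg1 (1.26, 0.947 to 1.67) were within 1.5-fold. The median log2 ratio was 0.33 over the 5 genes and 0.07 over all genes tested. Scd1 had 28 UMIs (95.75 CPM) in P301S and 16 (32.47 CPM) in WT, under the minimum for a ratio.

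For EKO over WT, 2 of 6 genes with enough UMIs were at least 1.5-fold higher, Fasn and Scd2, and none lower, where the background was 11.9% higher and 12.8% lower of 2212 genes. Fasn had 118.7 CPM (25 UMIs; 76.81 to 175.2) in EKO and 52.77 (26 UMIs; 34.47 to 77.32) in WT, a ratio of 2.25 (1.25 to 4.05). Per 1000 UMIs of the 7 astrocyte genes it had 7.3 in EKO and 4.85 in WT. Without the mixed nuclei it had 119.6 CPM in EKO and 66.6 in WT, on 25 and 23 UMIs, under the minimum for a ratio. Acaca (0.97), Elovl5 (1.06), Fads1 (1.28) and Acsbg1 (1.24) were within 1.5-fold.

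For P301S/EKO over P301S, 0 of 4 genes passed 1.5-fold in either direction, where 9.66% of 1656 genes were higher and 10.9% lower. Scd2 was at 1.23, Elovl5 at 1.30, Fads1 at 0.908 and Acsbg1 at 1.14. Fasn had 89.09 CPM on 22 UMIs in P301S/EKO and 51.3 on 15 in P301S, and its intervals overlapped. Fads2 had 68.84 CPM on 17 UMIs in P301S/EKO and 30.78 on 9 in P301S, and Scd1 56.69 on 14 in P301S/EKO and 95.75 on 28 in P301S.

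For P301S/EKO over EKO, Elovl5 was the 1 of 3 genes at least 1.5-fold higher, where 15.6% of 1293 genes were higher and 11.6% lower. Its level was 271.3 CPM (67 UMIs) in P301S/EKO and 161.4 (34 UMIs) in EKO, a ratio of 1.68 (1.10 to 2.62). Elovl5 had 208.6 CPM (61 UMIs) in P301S and 152.2 (75 UMIs) in WT. Without the mixed nuclei the ratio of P301S/EKO to EKO was 1.79 (1.16 to 2.81), and per 1000 UMIs of the 7 astrocyte genes Elovl5 had 14.9 in P301S/EKO and 9.93 in EKO. Leaving out the mixed nuclei removed only 6 of 203 nuclei in P301S/EKO and 1 of 197 in EKO. That step could therefore hardly change the ratio. Set against the astrocyte genes, however, WT (14.0) and P301S (13.4) lay beside P301S/EKO, and EKO was the library that stood lower.

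**Figure D4:**
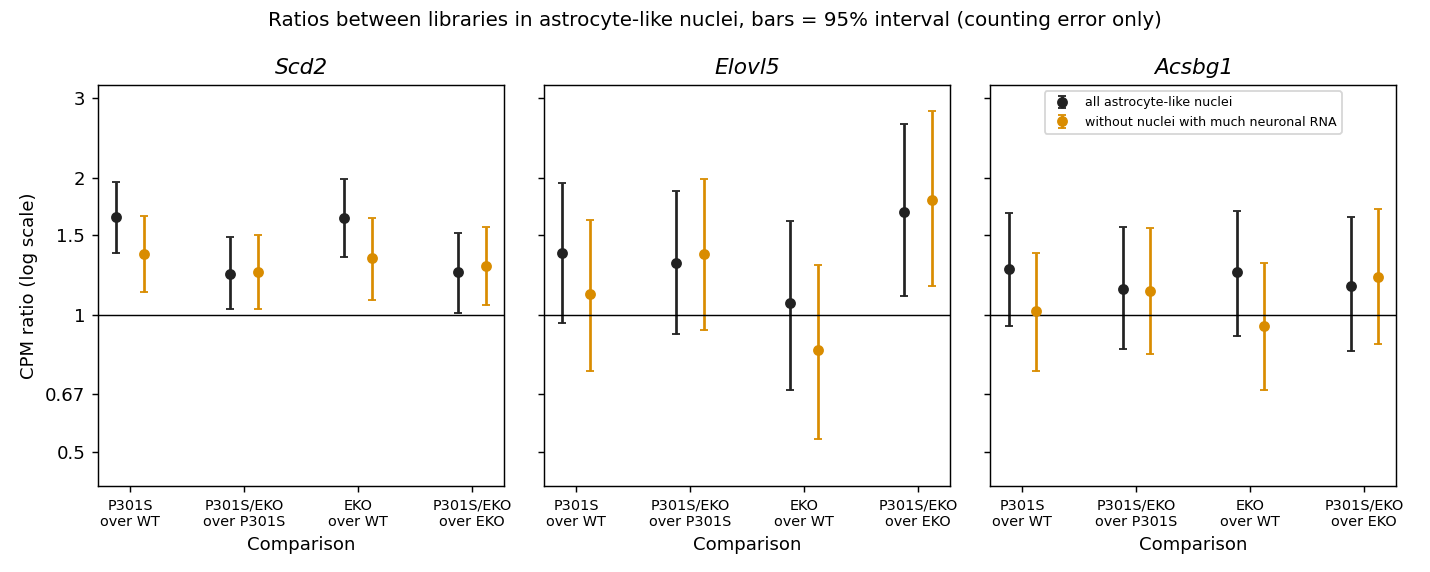
Ratios of Scd2, Elovl5 and Acsbg1 in astrocyte-like nuclei for the 4 comparisons, with 95% counting intervals, on a log axis with a line at no difference. Black points are all astrocyte-like nuclei, and orange points leave out nuclei with much neuronal RNA. The Scd2 intervals lie above the line in all 4 comparisons for both sets of nuclei. So does the Elovl5 interval in P301S/EKO over EKO. The orange Acsbg1 intervals span the line in all 4.

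Acaca showed its own pattern outside astrocyte-like nuclei: it was lower in P301S/EKO than in P301S in all 7 classes with enough UMIs for that comparison (log2 -0.72 to -0.11), although in CA1 neuron-like nuclei the direction turned with the setting (log2 -0.28 to 0.45). Over all nuclei it had 67.2 CPM in P301S/EKO, 98.28 in P301S, 80.65 in EKO and 82.99 in WT, with a ratio of 0.684 (0.613 to 0.763) for P301S/EKO over P301S and 0.833 (0.746 to 0.930) for P301S/EKO over EKO. The whole set of genes tested also shifted, with a median log2 ratio of -0.21 for P301S/EKO over P301S over all nuclei and between -0.15 and 0.03 in the 7 classes. These classes come from the same libraries and share the free RNA of each, so they do not count as independent. The estimated share of free RNA in them was 27.7% to 88.4% in P301S/EKO and 30.1% to 83.1% in P301S. In the sum over all nuclei, fewer nuclei of a class and less RNA per nucleus cannot be told apart.

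The Acaca ratio passed 1.5-fold in 3 of those classes. In microglia-like nuclei it had 79.45 CPM in P301S/EKO, 131.0 in P301S, 116.3 in EKO and 97.35 in WT, which is 0.606 (0.450 to 0.808) for P301S/EKO over P301S. Acaca was 1 of 6 genes there at least 1.5-fold lower, against a background of 13.2%, and Acly was 1 of 6 higher, at 1.56 (0.913 to 2.67), against 5.36%, though under 4 of 9 alternatives Acly was within 1.5-fold (log2 0.42 to 0.56). Acaca in CA2 or CA3 neuron-like nuclei had 50.22, 79.78, 80.85 and 72.43 CPM in P301S/EKO, P301S, EKO and WT, and P301S/EKO was 0.629 (0.438 to 0.907) of P301S and 0.621 (0.451 to 0.850) of EKO. There it was 1 of 4 genes lower in each comparison, against backgrounds of 14.4% and 3.81%. In dentate granule neuron-like nuclei it had 57.55 CPM in P301S/EKO and 90.33 in P301S, a ratio of 0.637 (0.402 to 1.04), 1 of 3 genes against 12.6%. P301S/EKO was the lowest of the 4 libraries in each of these classes. The microglia-like ratio kept to 1.5-fold or more under all 11 alternatives that gave a value. The CA2 or CA3 ratio to P301S was within 1.5-fold under 1 of 10, median-of-ratios scaling (log2 -0.43), and the dentate ratio under 4 of 11 (log2 -0.57 to -0.44).

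In the classes under 1.5-fold, oligodendrocyte-like nuclei had an Acaca ratio of 0.707 (0.476 to 1.05) for P301S/EKO over P301S, subicular or cortical excitatory neuron-like nuclei 0.767 (0.602 to 0.976), inhibitory neuron-like nuclei 0.779 (0.578 to 1.04) and CA1 neuron-like nuclei 0.929 (0.603 to 1.45). Against EKO, P301S/EKO was lower in 6 of 7 classes, the exception being inhibitory neuron-like nuclei at 1.07 (0.766 to 1.5). The microglia-like result without mixed nuclei was 0.60 (0.34 to 1.03), about the same size on fewer counts.

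**Figure D5:**
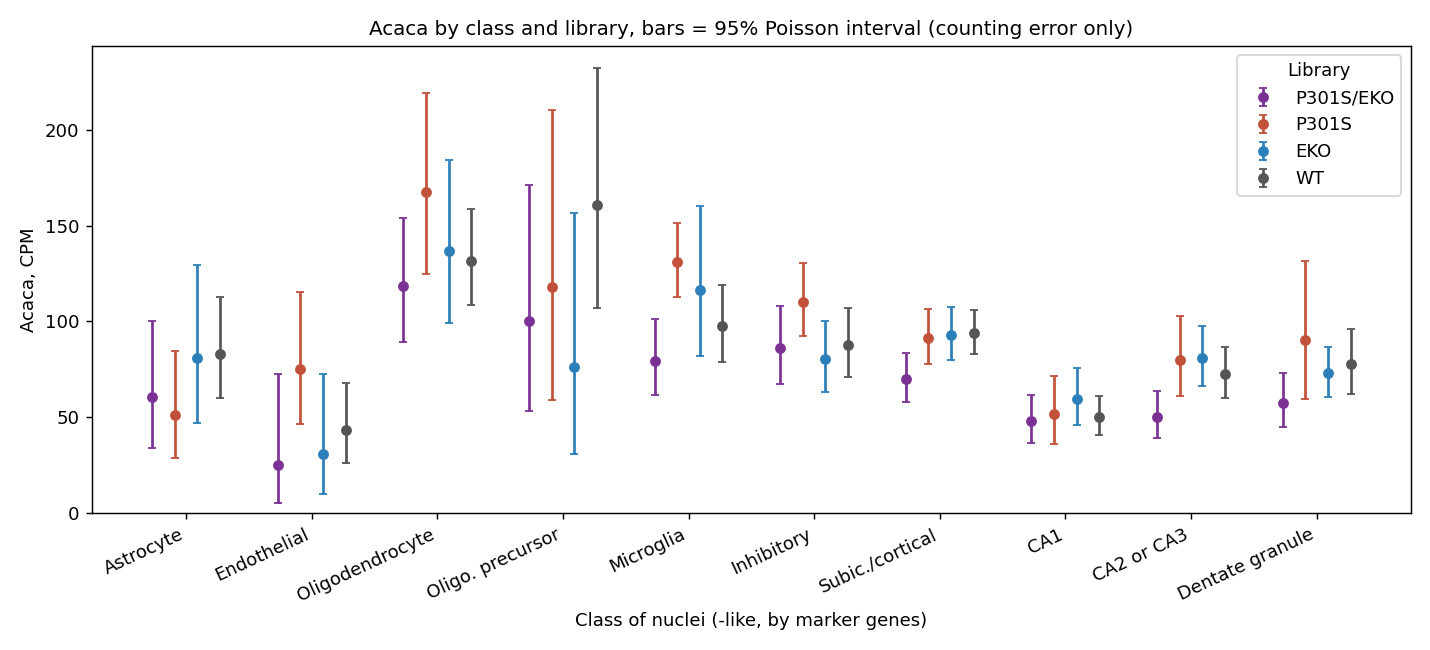
Acaca in CPM in each class and library, with 95% Poisson intervals and libraries in the order P301S/EKO, P301S, EKO and WT. P301S/EKO is the lowest library in 7 of the 10 classes, the exceptions being astrocyte-like, oligodendrocyte precursor-like and inhibitory neuron-like nuclei, and the class levels run between 24.88 and 167.4 CPM.

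Scd2 in oligodendrocyte precursor-like nuclei went against its astrocyte-like pattern in EKO. It had 346.4 CPM in P301S/EKO and 374.5 in P301S (on only 47 nuclei), against 130.2 in EKO and 293.1 in WT. EKO was 0.444 (0.216 to 0.844) of WT on 12 and 51 UMIs, where 14.4% of 585 genes were lower, and P301S/EKO was 2.66-fold (1.38 to 5.53) above EKO, where 6.71% of 447 genes were higher. Scd2 was the only member with enough UMIs in each comparison. EKO was the single low library, and mixed nuclei made up 25%, 40.4%, 13.6% and 60.8% of this class in P301S/EKO, P301S, EKO and WT. Without them, Scd2 had 431.0, 412.5, 119.5 and 395.5 CPM on 32, 17, 8 and 19 UMIs, with EKO still lowest.

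Elovl5 in endothelial-like nuclei was high in 1 library. The top genes of this class of 499 nuclei also included the mural markers Rgs5 and Vtn, and at a finer clustering 208 nuclei formed a fibroblast-like cluster (47 in P301S/EKO, 54 in P301S, 61 in EKO and 46 in WT) beside 299 endothelial-like nuclei (48, 76, 59 and 116). It had 58.06 CPM (7 UMIs) in P301S/EKO, 165.0 (46 UMIs) in P301S, 86.75 in EKO and 75.59 in WT. P301S was 2.18-fold (1.37 to 3.52) above WT, where 1 of 2 genes and 8.09% of all genes were higher. P301S/EKO was 0.352 (0.134 to 0.784) of P301S, where 1 of 2 genes and 9.65% of all genes were lower. Astrocyte genes summed to 3881, 4330, 5156 and 3051 CPM in this class, so it held astrocyte RNA in each library, and the part of that RNA in the Elovl5 differences was not tested. The P301S over WT ratio was 2.18 (1.30 to 3.73) without the mixed nuclei, and its log2 was 1.38 in the endothelial-like nuclei of the finer clustering, against 1.13 in the whole class.

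In the neurons, few genes passed 1.5-fold. Fads1 in dentate granule neuron-like nuclei had 44.39 CPM in EKO and 27.7 in WT, a ratio of 1.60 (1.04 to 2.54), 1 of 6 genes against a background of 5.36%. In subicular or cortical excitatory neuron-like nuclei Acly was 1.54-fold (1.03 to 2.32) higher in EKO than in WT, and P301S/EKO was 0.644 of EKO, each 1 of 8 genes, against 3.32% higher and 2.50% lower of all genes. Elovl5 there had a P301S over WT ratio of 1.60 (0.992 to 2.59), 1 of 8 genes against 9.08%. Each of these neuronal calls was within 1.5-fold under some alternatives: Fads1 under 2 of 11 (log2 0.49 and 0.50), Acly under 4 of 11 for EKO over WT (0.47 to 0.57) and 3 of 11 for P301S/EKO over EKO (-0.41 to -0.29), and Elovl5 under 4 of 9 (0.44 to 0.55). In oligodendrocyte-like, CA1 neuron-like and inhibitory neuron-like nuclei the genes with enough UMIs ran between a ratio of 0.707 (Acaca in oligodendrocyte-like nuclei, P301S/EKO over P301S) and 1.48 (Scd2 in CA1 neuron-like nuclei, P301S/EKO over P301S).

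Acsbg1 in subicular or cortical excitatory neuron-like nuclei had 20.29 CPM (36 UMIs) in P301S/EKO, 9.619 (17) in P301S, 8.818 (17) in EKO and 14.51 (40) in WT. P301S/EKO was 2.11-fold (1.15 to 4.01) above P301S and 2.30-fold (1.26 to 4.37) above EKO, each the 1 of 8 genes higher against 2.89% and 6.11% of all genes. P301S was 0.663 (0.352 to 1.20) of WT and EKO 0.608 (0.323 to 1.10) of WT, each 1 of 8 lower against 1.96% and 5.36%; the P301S ratio was within 1.5-fold under 2 of 7 alternatives (log2 -0.57 and -0.56). All 4 levels were below the level of the gene over all nuclei. This class joins clusters whose mix differed between libraries. The smallest of them had 173 of 1195 nuclei in P301S/EKO, 57 of 798 in P301S, 228 of 1133 in EKO and 224 of 1450 in WT. The largest, with 2463 nuclei, passed 1.5-fold for 4 of 13 markers. Acsbg1 was not compared within single clusters. The astrocyte genes summed to 570.4 CPM in P301S/EKO, 641.6 in P301S, 411.8 in EKO and 520.8 in WT in these neurons, so free astrocyte RNA was present, and its part in the Acsbg1 levels was not tested.

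Over all nuclei, 3 of 10 genes were at least 1.5-fold lower in EKO than in WT, where 6.59% of 12680 genes were: Scd1 at 0.594 (0.403 to 0.862), Fads2 at 0.498 (0.291 to 0.823) and Acsbg1 at 0.646 (0.525 to 0.793). None was higher, where 2.03% were. In P301S/EKO over EKO the same 3 genes were at least 1.5-fold higher, as were 5.28% of 12246 genes, and none lower, as were 1.67%: Scd1 at 2.35 (1.62 to 3.46), Fads2 at 1.63 (0.934 to 2.91) and Acsbg1 at 1.76 (1.42 to 2.18). Both comparisons contain the EKO library. Acsbg1 had 27.85 CPM in P301S/EKO, 24.3 in P301S, 15.84 in EKO and 24.5 in WT, so EKO was the low library and the other 3 lay close together. The 7 astrocyte genes summed to 1087 CPM over all nuclei in P301S/EKO, 1362 in P301S, 833.3 in EKO and 1044 in WT. Astrocyte-like nuclei made up 3.85%, 4.51%, 3.79% and 5.27% of the nuclei in that order. Their share of the UMIs, which weighs these levels, was 2.78%, 3.9%, 2.38% and 4.11%. EKO was lowest in each of these measures, and the part of the astrocyte-like share in the ratios of the 3 genes was not tested. Within astrocyte-like nuclei the order was another: each of the 3 genes had a higher level in EKO than in WT (Scd1 56.97 and 32.47 CPM, Fads2 47.48 and 40.59, Acsbg1 299.1 and 241.5). With equal weight per nucleus the log2 ratio of EKO over WT over all nuclei was -0.48 for Scd1 and -0.48 for Acsbg1, under 1.5-fold, and with doublets kept that of Fads2 for P301S/EKO over EKO was 0.48. None of the 10 passed 1.5-fold in P301S over WT (background 16.4% higher, 1.85% lower) or in P301S/EKO over P301S (1.75% higher, 18.5% lower).

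The regulators of the pathway were read in astrocyte-like nuclei from a list of 14 genes, beside lists of the surrounding steps. Srebf1, the master regulator of fatty acid synthesis genes, had 287.5 CPM in P301S/EKO, 362.5 in P301S, 128.2 in EKO and 156.3 in WT, and P301S was 2.32-fold (1.71 to 3.15) above WT. Thrsp, a nuclear protein tied to lipogenesis in liver, had 178.2, 160.7, 151.9 and 64.95 CPM in the same order, with P301S 2.47-fold above WT. Insig1, which holds the regulators in the endoplasmic reticulum when sterol is plentiful, had 105.3, 41.04, 185.2 and 117.7 CPM, with P301S 0.349 of WT. Of the 6 regulators with enough UMIs, 3 were at least 1.5-fold higher and 1 lower in P301S than in WT, and 4 were higher in EKO than in WT, beside the 20.9%, 16.1% and 11.9% given for all genes. The 10 ribosomal protein genes, read as a sign of RNA quality, summed to 2458 CPM in P301S/EKO, 3126 in P301S, 1766 in EKO and 2009 in WT in this class, and 6 of 10 were at least 1.5-fold higher in P301S than in WT. Among single genes, Rplp0 was 2.81-fold (1.94 to 4.10) and the astrocyte water channel Aqp4 2.21-fold (1.83 to 2.67) higher in P301S than in WT, as large as the Srebf1 and Thrsp ratios. The part of this shift in the regulators' ratios was not tested. Srebf1 and Insig1 also differed outside this class. Srebf1 was 2.28-fold above WT in P301S microglia-like nuclei and 1.96-fold over all nuclei. Insig1 had 25.5 CPM in P301S and 58.21 in WT in microglia-like nuclei, and 26.44 and 44.91 over all nuclei. Mlxipl, also listed, was 2.98-fold above WT in P301S microglia-like nuclei and 4.67-fold over all nuclei, but lower in astrocyte-like nuclei (3 and 13 UMIs). Microglia-like nuclei were 11.3% of nuclei in P301S and 4.03% in WT.

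The cholesterol synthesis genes that could be read were lower in P301S than in WT: 5 of 5 were at least 1.5-fold lower and 0 higher, beside 16.1% and 20.9% of all genes, with a median log2 ratio of -1.16. Of the fatty acid genes in that comparison, Scd2 was higher and Acaca lower. Sqle, squalene epoxidase, had 109.3 CPM in P301S/EKO, 41.04 in P301S, 265.9 in EKO and 164.4 in WT. In EKO over WT, 4 of 9 cholesterol synthesis genes were higher and none lower, beside 11.9% and 12.8% of all genes. Msmo1, a sterol methyl oxidase, had 413.0, 153.9, 655.2 and 314.6 CPM in P301S/EKO, P301S, EKO and WT, and P301S/EKO was 2.68-fold above P301S. P301S was the low library and EKO the high one for both sterol genes. Fasn was also highest in EKO, at 118.7 CPM, but P301S (51.3 CPM, 15 UMIs) lay beside WT (52.77 CPM, 26 UMIs). Scd2 differed from both sterol genes, with WT lowest and P301S/EKO highest.

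Among the carriers, Dbi, the acyl-CoA-binding protein, had 1336 CPM in P301S/EKO, 1211 in P301S, 517.5 in EKO and 523.6 in WT in astrocyte-like nuclei. The ratio was 2.58 (2.07 to 3.24) for P301S/EKO over EKO and 2.31 (1.96 to 2.72) for P301S over WT. Both libraries with the tau transgene stood above both without it, but this was not confined to astrocyte-like nuclei. Across the neuron classes the Dbi ratio of P301S/EKO to EKO ran between 2.61 (dentate granule) and 4.0 (CA2 or CA3). Over all nuclei it was 2.68 (2.45 to 2.94), and P301S over WT was 1.76 (1.63 to 1.9). The part of free RNA in these Dbi ratios was not tested. Acsl3, an acyl-CoA synthetase of the lipid droplet surface, had 818.0, 735.3, 878.3 and 428.3 CPM, and Slc27a1, a fatty acid transport protein, 425.2, 232.5, 517.5 and 245.6 CPM. Acsl3 had its lowest level in WT, as Scd2 did. Of the fatty acid oxidation genes, 2 of 5 were higher in P301S than in WT, beside 20.9% of all genes, and 1 of 4 lower in EKO than in WT, beside 12.8%.

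The genes whose pattern over classes and libraries was most like each member were found by the Pearson correlation of log2(CPM + 10) over 39 sums of class and library, among 10953 genes. These points share libraries and class names, so the correlations describe and carry no test. Acsbg1 lay nearest Grin2c (r = 0.97), Gstm5 and Aldoc, and Fads2 nearest Entpd2 (0.94), Lcat and Cbs. Elovl5 lay nearest Srebf1 and Htra1 (0.91 each), Scd2 nearest Cmtm5 (0.95) and Hepacam (0.93), and Scd1 nearest Aldoc (0.89). Fasn lay nearest Pax6, Tlcd1 and Agpat5 (0.86 each), and Fads1 nearest Gpld1 (0.85). Acaca lay nearest Gpr62 (0.82), Edil3 (0.79) and Lgi3 (0.78), while Acly (1110008F13Rik, 0.80) and Elovl6 (Ercc8, 0.79) had other neighbours. Among the members, Scd2 with Elovl5 and Scd1 with Acsbg1 reached 0.89, and Acaca ranged between -0.25 and 0.23 with the other 9.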

How the data were processed

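What the authors deposited is a matrix of raw UMI counts, genes by barcodes, for each library. Per the submitters' processing notes, the authors used Cell Ranger with mm10, and Seurat; neither versions nor intron handling is given there. Per the labels, nuclei were read with 10x 3′ chemistry.

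A barcode was kept if it had 200 or more genes and mitochondrial UMIs of 5% or less. Scrublet's own threshold called 2, 3, 0 and 1 doublets in P301S/EKO, P301S, EKO and WT, so the highest scores were removed at 0.8% per 1000 barcodes: 302, 74, 261 and 271. Kept nuclei were clustered together (2000 variable genes, 30 components, 15 neighbours, Leiden resolution 1) with the 10 genes left out, as were Prnp, Mapt, Apoe, sex-linked genes and mitochondrial genes. Of 16 clusters, 14 took names from 18 marker sets, written "-like". A name needed at least 3 markers at 1.5-fold; 2 clusters stayed unnamed. Counts were summed per class and library and given as CPM. Ratios needed 50 UMIs over both libraries and 50 nuclei in each; choroid plexus-like nuclei did not reach this. Intervals are exact Poisson (levels) and exact conditional binomial (ratios), both 95%.

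The rule for named genes was: all 10 members everywhere, up to 3 genes of each other list per class and comparison whose interval lay beyond 1.5-fold, and the 3 genes most like each member among those with at least 200 UMIs. Levels of such genes in other libraries, and Acsl3 and Slc27a1 beyond the rule's comparison, are given beside them. The members and lists were chosen with earlier results of these data known. The step for ratios was tested on simulated data. Alternatives tried were 11 planned ones and 1, scaling to 7 astrocyte genes, chosen after seeing the data. Tools were scanpy 1.11.5, anndata 0.12.19, igraph 0.11.9, scikit-learn 1.9.0, scipy 1.17.1, numpy 2.4.6, pandas 2.3.3 and matplotlib 3.10.9 in Python 3.11.15.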

Additional observations from a re-analysis of the deposited data

Results flagged for a closer look

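Acsbg1 in subicular or cortical excitatory neuron-like nuclei moved in opposite directions under the same contrast. The log2 ratio of P301S/EKO over EKO was 1.20 and that of P301S over WT -0.59, and the log2 ratio of P301S/EKO over P301S was 1.08 and that of EKO over WT -0.72. It was picked out because these pairs of effects have opposite signs and pass 1.5-fold. The difference was not tested, since each genotype is 1 library. The class joins clusters whose mix differed between libraries, and Acsbg1 was not compared within single clusters. A further condition, that both intervals lie away from 1, was dropped after the values were seen; the intervals of both ratios to WT span 1.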

How the results depend on the processing

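In astrocyte-like nuclei the log2 ratio of Scd2 was 0.71 for P301S over WT and 0.71 for EKO over WT. With free RNA subtracted these were 0.45 and 0.32, without nuclei holding much neuronal RNA 0.45 and 0.41, and scaled to 7 astrocyte genes 0.19 and 0.13. Scd2 stayed higher under all 12 alternatives in both comparisons, by at least 1.5-fold under 8 for P301S over WT and under 9 for EKO over WT. Scaled to the astrocyte genes, the median over the members was -0.19 for P301S over WT (main 0.33) and -0.25 for EKO over WT (main 0.33), and with free RNA subtracted EKO over WT gave -0.14. For P301S/EKO over P301S it was 0.51 with at least 500 genes and 0.54 with at least 1100 UMIs per nucleus (main 0.25), each over 3 genes. The median for EKO over WT in oligodendrocyte precursor-like nuclei was 1.05 with no minimum above 1 UMI, over 10 genes, and -1.17 in the main setting, over 1 gene. The cause was not tested, beyond the number of genes entering. Of the 12 alternatives, only 8 gave a value for Fasn in EKO over WT, and it stayed past 1.5-fold in these (0.59 to 1.41). Leaving out nuclei with much neuronal RNA gave no Fasn ratio, on 25 and 23 UMIs. Elovl5 in P301S/EKO over EKO stayed past 1.5-fold in 12 of 12 (0.59 to 1.11). Acaca in microglia-like nuclei for P301S/EKO over P301S did so in all 11 that gave a value (-0.94 to -0.59). The weakest values, 0.59 and -0.59, lay close to the 1.5-fold limit. Acaca in CA1 neuron-like nuclei for the same comparison ran between -0.28 and 0.45, so its direction depends on the setting. No paired analysis was possible because each genotype has 1 library. Small counts (4 to 42 UMIs for 7 of the 10 genes in the astrocyte-like class) limit what can be seen.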
